A study of Mus musculus with 8 samples.

Results

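A set of 10 chemokine genes that draw neutrophils and monocytes were followed in the 2 groups of an RNA sequencing study of a mouse kidney line: Cxcl1, Cxcl2, Cxcl5, Ppbp, Ccl2, Ccl7, Ccl5, Ccl20, Cx3cl1 and Cxcl16. They were taken by gene symbol, and all 10 of them were found among the 22274 genes of the deposited table. Of the 10, 9 had enough reads to be tested, and Cxcl5 did not. The line is labelled RFB, is given as kidney fibroblasts, and was treated with the profibrotic cytokine TGF-β in all 8 libraries. In 4 libraries the cells carried the virus labelled ad-CRE, named after the Cre recombinase, and in 4 the virus labelled ad-GFP, named after a fluorescent protein. No group analysed here went without TGF-β or without virus. Whether the 4 libraries of a group came from separate cultures is not stated, and p-values therefore read the spread from library to library, technical or not.

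Chemokines are small secreted or membrane-bound proteins that guide leukocytes along gradients, and stressed tubules and fibroblasts of the kidney are known to release them. Cxcl1, Cxcl2, Cxcl5 and the processed product of Ppbp act on the receptor CXCR2 of neutrophils. Ccl2 and Ccl7 act on CCR2 of monocytes, Ccl5 on CCR1 of monocytes, and Ccl20 on CCR6 of lymphocytes and dendritic cells. Cx3cl1 and Cxcl16 are made as transmembrane proteins that hold cells by CX3CR1 and CXCR6 and are shed by the proteases ADAM10 and ADAM17. Transcription of Cxcl1, Cxcl2, Ccl2 and Ccl20 is known to be driven by NF-kB.

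The promoters of 5 of the 10 genes (Cxcl1, Cxcl2, Ppbp, Ccl20 and Cx3cl1) were in the RefSeq promoter table (GRCm38.p6). Those of 4 genes are shown, on the plus strand from base -100 to base -21 before the RefSeq start, Cxcl1 and Cxcl2 because these neighbours share a motif and differ in their results, and Ppbp and Ccl20 to set beside them. Capitals mark matches to the NF-kB consensus (kB, either strand, overlapping matches allowed) or to TATAAA on the gene's strand.
Cxcl1, chr5:90891145-90891224: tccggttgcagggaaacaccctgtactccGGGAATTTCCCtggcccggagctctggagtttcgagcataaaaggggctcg
Cxcl2, chr5:90903799-90903878: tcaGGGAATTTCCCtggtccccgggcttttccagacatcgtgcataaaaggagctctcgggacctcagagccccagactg
Ppbp, chr5:90768418-90768497: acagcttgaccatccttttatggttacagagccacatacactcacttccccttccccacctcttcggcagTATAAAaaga
Ccl20, chr1:83116666-83116745: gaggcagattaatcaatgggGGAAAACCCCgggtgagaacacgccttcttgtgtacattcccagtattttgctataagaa
Cxcl1 and Cxcl2 held the same 11 bases, GGGAATTTCCC, in which the kB consensus matches in a pair of overlapping frames. Within 250 bases before the start, 7.25% of 32851 promoters held a kB match, while 14 (0.0426%) held those 11 bases, a count made after the sequence had been seen. TATAAA was found in 7.59% of promoters and the interferon element ISRE in 2.98%. A loose form of the AP-1 motif, TGANTCA with any base at N, was found in 6.75%. Ppbp held 1 match to this loose form, TGAATCA, and the 5 promoters held no match to the interferon element. A kB match was found in 3 of the 5 (Cxcl1, Cxcl2 and Ccl20), and Ppbp and Cx3cl1 held none. These matches describe letters and not binding.

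Levels are given as CPM, counts relative to library size after scaling by TMM (a factor that corrects for differing make-up of libraries), and changes as log2 fold change of ad-CRE over ad-GFP from edgeR's quasi-likelihood test, called at a Benjamini-Hochberg adjusted p under 0.05 over all 13702 genes tested. Cxcl1, Ppbp, Ccl2, Cx3cl1 and Cxcl16 rose in ad-CRE and Ccl5 fell, while Cxcl2, Ccl7 and Ccl20 did not pass. Against these 5 of 9 that rose and 1 of 9 that fell, 36.8% of all genes tested rose and 36.3% fell, so that 73.1% were called. Under a stricter rule that adds a change of at least 1 log2 unit, 4 of 9 rose and 1 fell, against 4.84% and 9.43% of all genes. The groups did not overlap in 6 of the 9, against 66.2% of all genes. The genes were picked with earlier results of these data known, so these shares are a description.

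**Figure D1:**
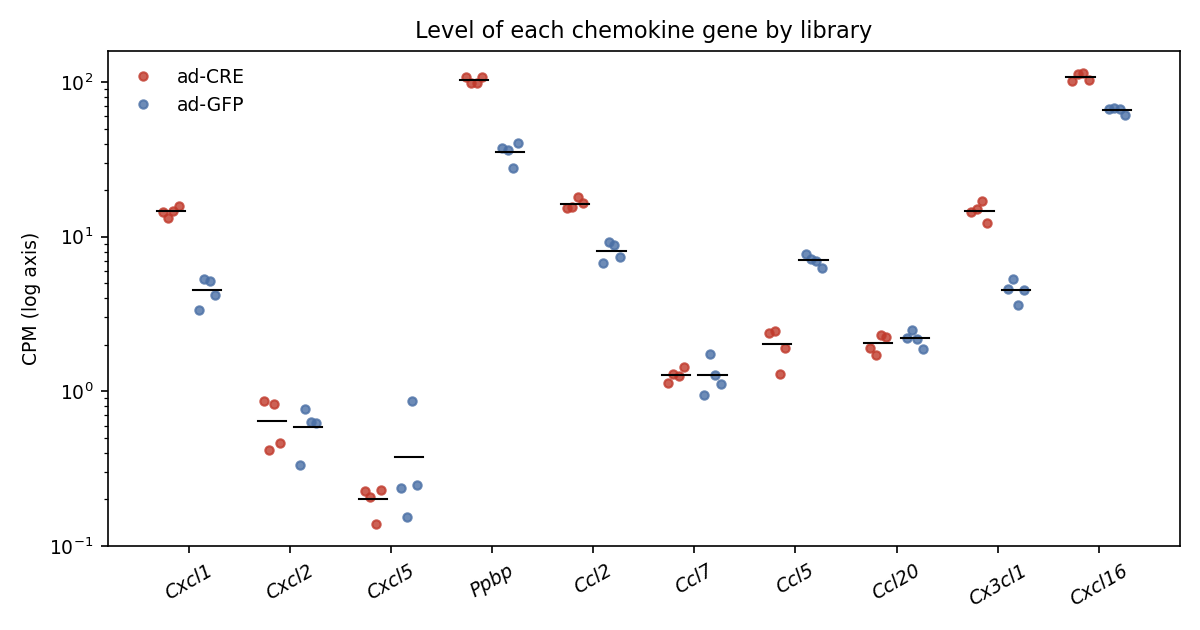
Level of each of the 10 chemokine genes in CPM (log axis), with 1 point per library, ad-CRE to the left of ad-GFP and a bar at the mean of 4 libraries. All ad-CRE points lie above all ad-GFP points for Cxcl1, Ppbp, Ccl2, Cx3cl1 and Cxcl16 and below them for Ccl5, and the groups overlap for Cxcl2, Cxcl5, Ccl7 and Ccl20.

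Among the CXCR2 ligands, Cxcl1 and Ppbp rose about as many fold as each other, and Cxcl2 and Cxcl5 stayed near the limit of detection. Cxcl1 (ENSMUSG00000029380, GRCm38 chromosome 5, 90891241 to 90893115, plus strand), the main neutrophil attractant released by mouse fibroblasts and epithelia, had 14.5, 13.2, 14.7 and 15.9 CPM in ad-CRE replicates 1 to 4, against 3.36, 5.31, 5.13 and 4.16 CPM in ad-GFP replicates 1 to 4. The lowest ad-CRE library lay well above the highest ad-GFP library. It rose by 1.70 on the log2 scale (SE 0.11, edgeR adjusted p = 1.77e-14), or 3.25-fold.

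Ppbp (ENSMUSG00000029372, chromosome 5, 90768518 to 90770063, plus strand) encodes the precursor of a chemokine best known from platelet granules. It had 107, 99.2, 98.5 and 108 CPM in ad-CRE replicates 1 to 4, against 37.5, 36.1, 28.0 and 40.4 CPM in ad-GFP replicates 1 to 4. The ad-GFP library of replicate 3 was the lowest, and no ad-CRE library came near the ad-GFP ones. The log2 fold change was 1.54 (SE 0.061, edgeR adjusted p = 4.54e-20), from 8292 reads in ad-CRE and 2636 reads in ad-GFP. Per length, Ppbp had the highest mean of the 10 genes in both groups. In ad-GFP its range of 26.1 to 37.5 FPKM (fragments relative to transcript length and library size) overlapped that of Cxcl16, 26.9 to 31.0 FPKM. Platelet and megakaryocyte transcripts were scarce beside it: the 9 markers summed to 3.46 to 4.34 CPM in ad-CRE and 3.93 to 4.72 CPM in ad-GFP. Of these, Treml1 had no read in any library, and Gp9 had 1 read in ad-CRE and 5 in ad-GFP. Of the 3 tested none rose and 1 fell, where 36.8% of all genes tested rose and 36.3% fell. The 1 that fell was F2rl2 (-0.80, edgeR adjusted p = 0.00683), from 66 reads in ad-CRE and 106 in ad-GFP. Pf4, the platelet chemokine gene that starts 2.4 kb behind Ppbp, had 1.15 ± 0.207 CPM in ad-CRE and 1.39 ± 0.253 CPM in ad-GFP (SD, n = 4) and did not pass (-0.27, edgeR adjusted p = 0.312).

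Cxcl2 (ENSMUSG00000058427, chromosome 5, 90903871 to 90905938, plus strand), which lies 10.8 kb behind Cxcl1 and shares its kB letters, had 19, 8, 18 and 8 reads in ad-CRE replicates 1 to 4, against 7, 15, 11 and 10 reads in ad-GFP replicates 1 to 4. The groups overlapped. Its log2 fold change was 0.17 with a 95% interval of -0.54 to 0.88 (edgeR adjusted p = 0.661), which leaves out a rise as large as that of Cxcl1. Cxcl5 (ENSMUSG00000029371, chromosome 5, 90759360 to 90761624, plus strand) had 5, 4, 3 and 4 reads in ad-CRE replicates 1 to 4, against 5, 3, 15 and 4 reads in ad-GFP replicates 1 to 4. Only ad-GFP replicate 3 stood above the other libraries, and a difference was not detectable at this depth. With no filter beyond 1 read, its log2 fold change was -0.85 (edgeR adjusted p = 0.197).

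The ratio of a pair of genes within a library does not depend on how libraries are scaled, and 5 such ratios are given as a description, with no test, because the pairs were picked after the values were seen. The reads of Cxcl1 per read of Cxcl2 lay between 16.8 and 34.5 in ad-CRE and between 6.7 and 10.1 in ad-GFP, a log2 difference of 1.60. The reads of Cxcl1 per read of Ppbp lay between 0.133 and 0.149 in ad-CRE and between 0.0895 and 0.184 in ad-GFP. These ranges overlap, with a log2 difference of 0.16. That value lay between 0.0013 without ad-GFP replicate 1 and 0.35 without ad-GFP replicate 3.

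**Figure D2:**
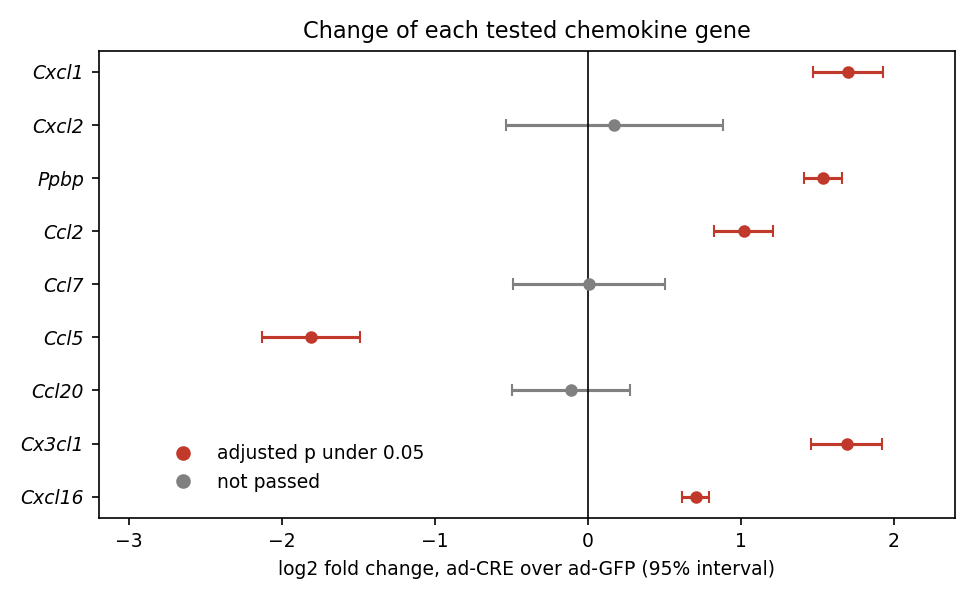
Log2 fold change of ad-CRE over ad-GFP for the 9 tested genes, with its 95% interval from the edgeR fit. The intervals of Cxcl1, Ppbp, Ccl2, Cx3cl1 and Cxcl16 lie above 0 and that of Ccl5 lies below 0 (adjusted p under 0.05), and those of Cxcl2, Ccl7 and Ccl20 include 0.

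Of the CCR2 ligands, Ccl2 rose and its neighbour Ccl7 did not pass. Ccl2 (ENSMUSG00000035385, chromosome 11, 82035571 to 82037453, plus strand), the chief monocyte attractant, had 15.2, 15.5, 18.1 and 16.5 CPM in ad-CRE replicates 1 to 4, against 6.77, 9.29, 8.88 and 7.33 CPM in ad-GFP replicates 1 to 4. The highest ad-GFP library stayed well under the lowest ad-CRE library. Ccl2 rose by 1.02 on the log2 scale (SE 0.094, edgeR adjusted p = 4.43e-11), just past the stricter limit of 1. It fell under that limit in 7 of 17 alternative settings, the lowest of them 0.93 on the log2(FPKM + 1) scale, and stayed called in all of them.

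Ccl7 (ENSMUSG00000035373, chromosome 11, 82045712 to 82047525, plus strand) starts 8.3 kb behind Ccl2. It had 25, 25, 27 and 25 reads in ad-CRE replicates 1 to 4, against 20, 34, 22 and 18 reads in ad-GFP replicates 1 to 4. The ad-CRE libraries all fell within the ad-GFP range. Its log2 fold change was 0.01 with a 95% interval of -0.49 to 0.50 (edgeR adjusted p = 0.982), an interval that leaves out the rise of Ccl2. The reads of Ccl2 per read of Ccl7 were between 11.5 and 14.5 in ad-CRE and between 5.35 and 7.15 in ad-GFP, a log2 difference of 0.98. Ccl12, another CCR2 ligand gene of mice in the same cluster, had 62 reads in ad-CRE and 56 in ad-GFP and did not pass (0.03, edgeR adjusted p = 0.94), and Ccl8 and Ccl11 had no read in any library.

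Ccl5 (ENSMUSG00000035042, chromosome 11, 83525778 to 83530518, minus strand), which interferon and NF-kB are both known to induce, was the single gene of the 10 that fell. It had 2.398, 2.45, 1.30 and 1.90 CPM in ad-CRE replicates 1 to 4, against 7.76, 7.19, 6.92 and 6.27 CPM in ad-GFP replicates 1 to 4. The groups were far apart, with ad-CRE replicate 3 the lowest library. The log2 fold change was -1.81 (SE 0.16, edgeR adjusted p = 1.15e-11), a 3.51-fold fall, from 161 reads in ad-CRE and 526 reads in ad-GFP. The reads of Ccl2 per read of Ccl5 were between 6.32 and 14 in ad-CRE and between 0.872 and 1.29 in ad-GFP, a log2 difference of 2.88. Beside it, monocyte and macrophage markers fell in 10 of 13 tested, with none that rose and a median of -0.52, against 36.3% of all genes that fell. The 14 markers summed to 208 to 218 CPM in ad-CRE and 293 to 332 CPM in ad-GFP. The cytokine receptor gene Csf1r had 39.8 ± 1.84 CPM in ad-CRE and 57.1 ± 4.69 CPM in ad-GFP (SD, n = 4; -0.52), and Lyz2, a lysozyme gene of macrophages, had a log2 fold change of -0.56. Fibroblast and endothelial markers had lower medians, at -1.02 and -1.15. The part of any of these transcripts in the fall of Ccl5 was not tested. In bulk RNA, fewer cells of a type cannot be told apart from less RNA per cell.

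Ccl20 (ENSMUSG00000026166, chromosome 1, 83116766 to 83119167, plus strand) had 42, 33, 50 and 39 reads in ad-CRE replicates 1 to 4, against 47, 49, 38 and 30 reads in ad-GFP replicates 1 to 4. The CPM ranges overlapped in part, at 1.72 to 2.31 in ad-CRE and 1.86 to 2.50 in ad-GFP. The log2 fold change was -0.11 with a 95% interval of -0.49 to 0.27 (edgeR adjusted p = 0.606). Its promoter holds a kB match other than that of Cxcl1.

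Both transmembrane chemokines rose, Cx3cl1 by more than Cxcl16. Cx3cl1 (ENSMUSG00000031778, chromosome 8, 94772009 to 94782427, plus strand), also called fractalkine, had 14.4, 14.99, 17.03 and 12.3 CPM in ad-CRE replicates 1 to 4, against 4.59, 5.36, 3.63 and 4.53 CPM in ad-GFP replicates 1 to 4. No libraries of the groups overlapped. The log2 fold change was 1.69 (SE 0.11, edgeR adjusted p = 2.5e-14), close to that of Cxcl1. It was 1.17 on the log2(FPKM + 1) scale, which understates changes at low levels.

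Cxcl16 (ENSMUSG00000018920, chromosome 11, 70453983 to 70459984, minus strand), a ligand of CXCR6 and a scavenger receptor, had 101, 112, 114 and 102 CPM in ad-CRE replicates 1 to 4, against 66.5, 68.2, 67.3 and 60.8 CPM in ad-GFP replicates 1 to 4. The groups were apart although the change was the smallest of the 6 called. Cxcl16 rose by 0.71 on the log2 scale (SE 0.043, edgeR adjusted p = 2.24e-15), from 8628 reads in ad-CRE and 4889 in ad-GFP. Its exons overlap those of Zmynd15 on the other strand, and the sources used here do not state whether reads were counted by strand, so reads of the pair cannot be told apart. Zmynd15 had only 227 reads in ad-CRE and 169 in ad-GFP (0.32, edgeR adjusted p = 0.131). The reads of Cx3cl1 per read of Cxcl16 were between 0.12 and 0.15 in ad-CRE and between 0.0539 and 0.0785 in ad-GFP, a log2 difference of 0.99.

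Of 6 genes that shed or trim these chemokines or regulate that step, 5 rose and none fell. Over all genes tested, 36.8% rose and 36.3% fell. Dpp4, a protease that trims chemokines, was low at 0.887 ± 0.125 CPM in ad-CRE and 0.958 ± 0.237 CPM in ad-GFP (SD, n = 4) and did not pass (list median 0.33, where the median over all genes tested was 0.00). Adam17 had 93.1 ± 2.54 CPM in ad-CRE and 65.0 ± 2.93 CPM in ad-GFP (SD, n = 4), higher by 0.52 on the log2 scale (edgeR adjusted p = 3.29e-13). Its partners Rhbdf1 and Rhbdf2 rose by 0.47 and 0.33, and so did Timp3, an inhibitor of both proteases, by 0.33. Adam10 rose by only 0.13 and no longer passed on the log2(FPKM + 1) scale (0.08, limma adjusted p = 0.0897) or the log2(FPKM + 0.1) scale (0.08, limma adjusted p = 0.0902).

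Levels of different genes were compared per length, with the deposited FPKM values (fragments relative to transcript length and library size). Summed over the 10 genes they came to 189, 187, 191 and 194 FPKM in ad-CRE replicates 1 to 4, against 97.8, 104, 92.2 and 95.6 FPKM in ad-GFP replicates 1 to 4, a ratio of means of 1.95. The CXCR2 ligands made up most of that difference, at 110 ± 5.58 FPKM in ad-CRE and 38.6 ± 4.26 FPKM in ad-GFP (SD, n = 4). The level of Ppbp was 94.5 ± 4.77 FPKM in ad-CRE and 33.1 ± 4.94 FPKM in ad-GFP, or 47.2% to 52.0% and 28.3% to 39.2% of the sum. In ad-CRE the order of levels ran from Ppbp to Cxcl16, Ccl2, Cxcl1, Cx3cl1, Ccl5, Ccl20, Ccl7, Cxcl2 and Cxcl5, and of the neighbours in it Cx3cl1 and Ccl5, and Ccl5 and Ccl20, overlapped between libraries. In ad-GFP the order ran from Ppbp to Cxcl16, Ccl5, Ccl2, Cxcl1, Ccl20, Ccl7, Cx3cl1, Cxcl2 and Cxcl5, with overlap between Ppbp and Cxcl16, Ccl7 and Cx3cl1, and Cxcl2 and Cxcl5. Ccl5 thus stood at place 6 in ad-CRE and place 3 in ad-GFP, with a level of 3.74 ± 1.003 FPKM in ad-CRE and 13.3 ± 1.19 FPKM in ad-GFP. Cx3cl1 stood at place 5 in ad-CRE and place 8 in ad-GFP.

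**Figure D3:**
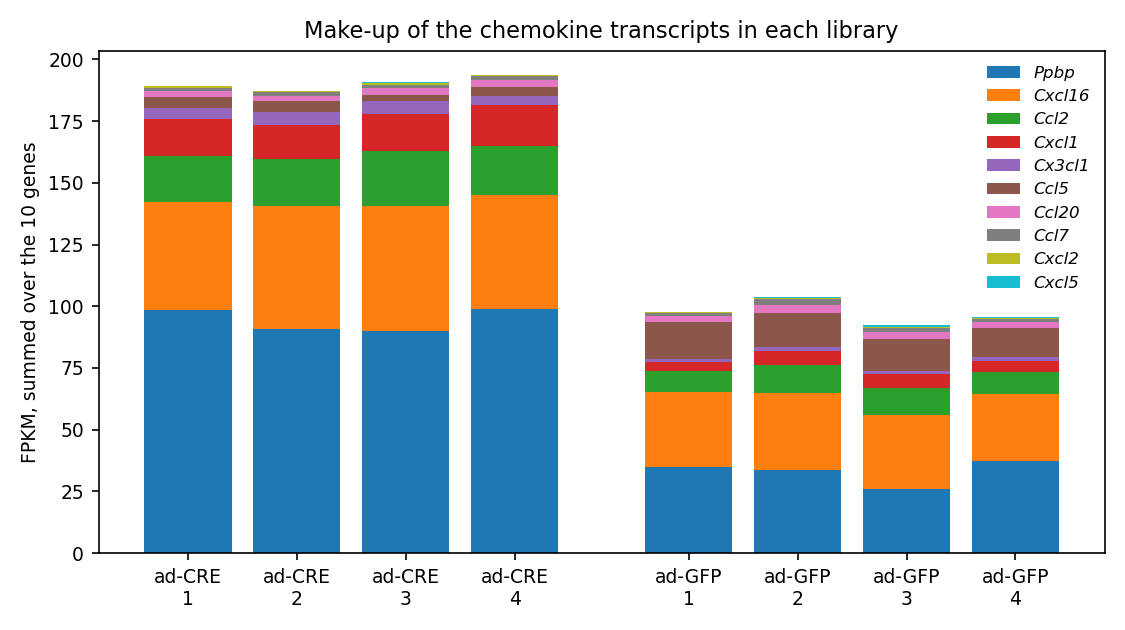
FPKM of the 10 chemokine genes stacked for each library, with the 4 ad-CRE libraries left of the 4 ad-GFP libraries. The ad-CRE columns reach 187 to 194 FPKM and the ad-GFP columns 92.2 to 104 FPKM, and Ppbp is the largest part in most of them.

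Several of the genes have other chemokine genes as neighbours on chromosomes 5, 11 and 8, while Ccl20 lies alone on chromosome 1 and Cxcl16 far from the others of chromosome 11. On chromosome 5, Ppbp and Cxcl1 rose while Pf4 and Cxcl2 did not pass, and Cxcl3, Cxcl5 and Cxcl15 had too few reads. Farther along, the interferon-induced chemokine genes Cxcl10 and Cxcl11 rose by 2.80 and 3.67. Their neighbour Cxcl9, with 0 reads in ad-CRE and 5 in ad-GFP, had too few reads to be tested. GENCODE M21 lists Cxcl11 as a polymorphic pseudogene. Exons of Cxcl10 overlap those of Art3, and exons of Cxcl11 those of Gm2673, on the other strand. As for Cxcl16, reads of such pairs cannot be told apart here. On chromosome 11, the 5 genes from Ccl5 to Ccl4 all fell, where 36.3% of all genes tested fell. The run was drawn from Ccl5 on, and so it counts the gene that sets its start. With Ccl5 it holds Ccl9 (-0.95), Ccl6 (-0.70), Ccl3 (-0.93) and Ccl4 (-1.54). Ccl4 had 18 reads in ad-CRE and 49 in ad-GFP. Ccl3, Ccl4, Ccl6 and Ccl9 are known as macrophage chemokines. Macrophage, fibroblast and endothelial markers had medians of -0.52, -1.02 and -1.15, and tubular epithelial markers 0.40. The part of any of these cell types in the run was not tested. On chromosome 8, Cx3cl1 lies between Ccl22, with 0 reads in ad-CRE and 1 in ad-GFP, and Ccl17, a ligand of CCR4. Ccl17 did not reach the limit for testing, with 8, 16, 26 and 11 reads in ad-CRE replicates 1 to 4, against 1, 1, 0 and 3 in ad-GFP replicates 1 to 4. With no filter beyond 1 read it passed (log2 fold change 3.38, edgeR adjusted p = 1.07e-07).

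**Figure D4:**
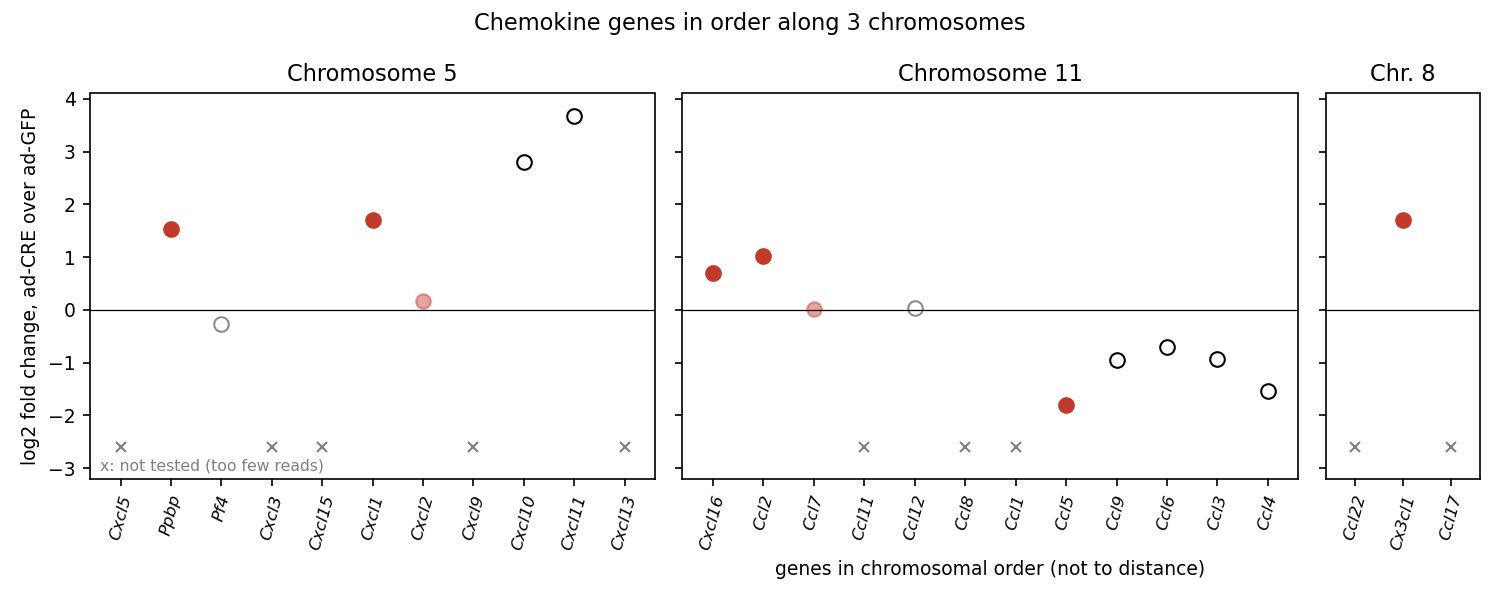
Log2 fold change of ad-CRE over ad-GFP for chemokine genes in their order along chromosomes 5, 11 and 8, without distances. Left out are Ccl24 and Ccl26 of chromosome 5 and Ccl25 and Cklf of chromosome 8. Of these, Ccl24 (3.16) and Cklf (0.62) rose, Ccl25 did not pass (-0.23) and Ccl26 had no read. Filled points are genes of the 10 and open points other chemokine genes, pale points did not pass, and crosses mark genes that were not tested. The run from Ccl5 to Ccl4 lies below 0, and Ppbp, Cxcl1, Ccl2 and Cx3cl1 lie at 1 or above.

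Of the other 29 chemokine ligand genes, 15 were tested, of which 5 rose and 5 fell, with a median of -0.22. Those counts are near the shares of all genes tested, of which 36.8% rose and 36.3% fell. Receptors of the 10 chemokines were mostly near 0 in the same cells. Cxcr1 and Ccr3 had no read in any library, Cxcr2 had 2 reads in ad-CRE and 15 in ad-GFP, Ccr2 had 10 and 8, Ccr6 had 0 and 1, and Cxcr6 had 23 and 20. With no filter beyond 1 read, Cxcr2 passed as fallen (-2.74, edgeR adjusted p = 0.012), which makes 2 receptors that fell against 1 with the filter. Ccr1 fell (-0.29, edgeR adjusted p = 0.00273) and Cx3cr1 did not pass (-0.14, edgeR adjusted p = 0.136). Cx3cr1 had 15.6 ± 0.907 CPM in ad-CRE and 17.2 ± 2.63 CPM in ad-GFP (SD, n = 4), a receptor that macrophages also carry. It passed without ad-GFP replicate 1 (-0.19, edgeR adjusted p = 0.0413) and without ad-GFP replicate 4 (-0.20, edgeR adjusted p = 0.0371). Of the atypical receptors, which bind chemokines without moving the cell, the CXCL12 scavenger Ackr3 fell (-0.45, edgeR adjusted p = 0.0141), though not without ad-GFP replicate 1 (-0.39, edgeR adjusted p = 0.0527). Ccrl2 did not pass (-0.56, edgeR adjusted p = 0.0624), except without ad-GFP replicate 3 (-0.65, edgeR adjusted p = 0.042).

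Genes of the NF-kB pathway rose more often than they fell. Of 17 factors and regulators, 11 rose, 2 fell and 4 did not pass, where 36.8% of all genes tested rose and 36.3% fell. Their median was 0.29, against 0.00 over all genes tested. Nfkbia, an inhibitor of NF-kB that is itself an NF-kB target, had 40.4 ± 1.90 CPM in ad-CRE and 12.2 ± 1.76 CPM in ad-GFP (SD, n = 4), a log2 fold change of 1.73 (edgeR adjusted p = 9.21e-20). Relb rose by 1.29, Nfkb1 by 0.72 and Nfkb2 by 0.61, all of them subunits of the factor. Rela, a further subunit, did not pass (0.04, edgeR adjusted p = 0.315). The 2 genes that fell were Chuk (-0.35) and Ikbkg (-0.22), of the kinase complex that activates NF-kB. Ikbkb of the same complex did not pass (0.05, edgeR adjusted p = 0.313). Nfkbie, another inhibitor, rose by 1.09. Tnfaip3, which restrains the pathway, rose by 0.27 in counts but had -0.02 on both FPKM scales (limma adjusted p = 0.641 and 0.642).

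Of 20 genes of the inputs that switch chemokines on, 7 rose, 5 fell and 8 did not pass (median -0.07), shares no higher than the 36.8% and 36.3% of all genes that rose and fell. With scaling by total counts alone, 8 fell. Tlr2, a receptor for bacterial lipoproteins, rose by 0.38 and Tlr4, the receptor for lipopolysaccharide, fell (-0.58). The adaptor genes Traf2 and Traf6 rose by 0.43 and 0.39, and the kinase gene Irak1 rose by 0.25. The kinase gene Map3k7 did not pass (-0.05, edgeR adjusted p = 0.155), though it did when scaled by total counts only (-0.08, edgeR adjusted p = 0.0287) or tested among genes of at least 5 CPM (-0.07, edgeR adjusted p = 0.0326). Il1b and Tnf, cytokine genes singled out after their values were seen, were low. Il1b had 6.51 ± 0.185 CPM in ad-CRE and 3.26 ± 1.23 CPM in ad-GFP (SD, n = 4; 0.98, edgeR adjusted p = 3.45e-06). Tnf had 41 reads in ad-CRE and 75 in ad-GFP (-0.97, edgeR adjusted p = 0.0173), and no longer passed without ad-CRE replicate 3 (-0.79, edgeR adjusted p = 0.0665), without ad-GFP replicate 2 (-0.48, edgeR adjusted p = 0.243) or on the log2(FPKM + 1) scale (-0.28, limma adjusted p = 0.0715) and the log2(FPKM + 0.1) scale (-0.70, limma adjusted p = 0.0554).

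Chemokine mRNAs are short-lived and are known to be controlled by proteins that bind AU-rich and stem-loop elements. Of 9 such genes, 6 rose, 2 fell and 1 did not pass (median 0.21), where 36.8% of all genes tested rose and 36.3% fell. Zfp36l1, a decay factor, had 192 ± 9.23 CPM in ad-CRE and 83.3 ± 3.90 CPM in ad-GFP (SD, n = 4), a log2 fold change of 1.20 (edgeR adjusted p = 9.09e-23). Arid5a, which stabilises inflammatory mRNAs, rose by 0.94 and the decay factor Khsrp by 0.21, whereas Hnrnpd fell (-0.51). Elavl1, a stabilising factor, rose by 0.14 in counts, but was at 0 on both FPKM scales (limma adjusted p = 0.988).

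**Figure D5:**
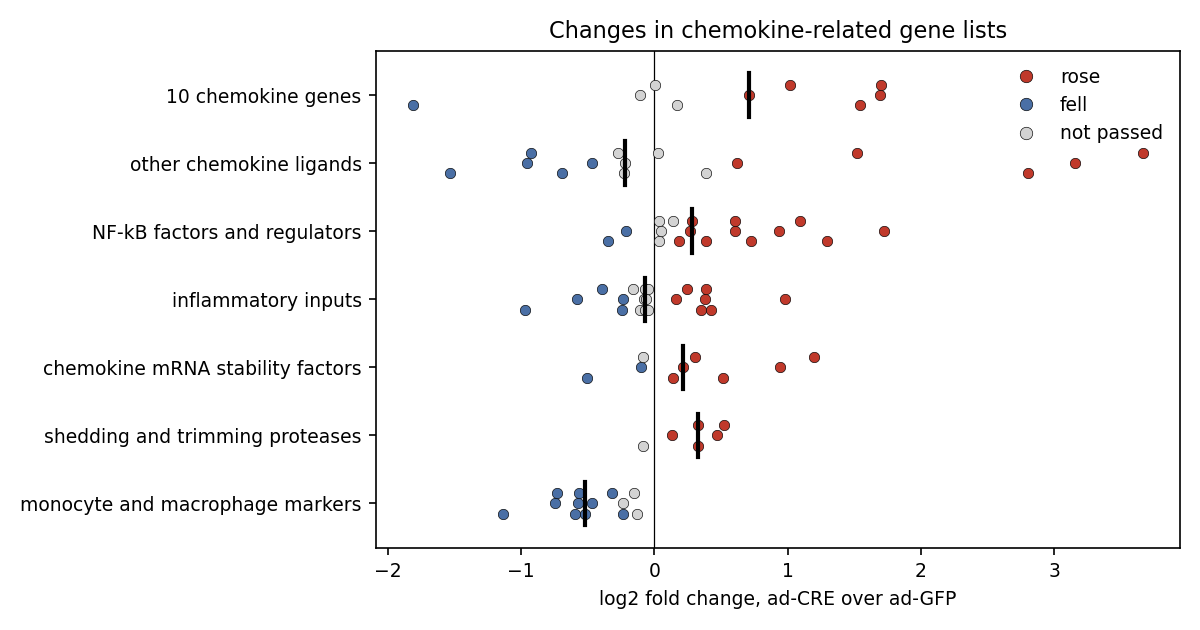
Log2 fold change of ad-CRE over ad-GFP of each tested gene in the 10 chemokines and in 6 related lists, coloured by whether it rose, fell or did not pass, with a bar at the median. NF-kB genes lie mostly above 0 (11 of 17 rose) and monocyte and macrophage markers below 0 (10 of 13 fell). Over all genes tested, 36.8% rose and 36.3% fell.

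Cell type markers and the genes Suv39h1 and Smarca4 were read in the same libraries. Depth was 17572152 to 22297598 counts in ad-CRE and 15998257 to 20920828 counts in ad-GFP. Suv39h1, the gene the study's title and design text name, had 32.5 ± 0.795 CPM in ad-CRE and 41.5 ± 3.16 CPM in ad-GFP (SD, n = 4; -0.35), and Smarca4, which encodes the chromatin remodelling ATPase BRG1, had 34.3 ± 3.20 CPM in ad-CRE and 288 ± 11.1 CPM in ad-GFP (-3.07). No label used here gives the allele that Cre would recombine, and groups are therefore called by their virus. Neutrophil markers were at or near 0: 4 of 10 had no read, and their sum was 0.226 to 0.648 CPM in ad-CRE and 0.994 to 2.24 CPM in ad-GFP. With no filter beyond 1 read, Ly6g (8 reads in ad-CRE and 34 in ad-GFP, edgeR adjusted p = 0.00141) and Ltf (8 reads in ad-CRE and 28 in ad-GFP, edgeR adjusted p = 0.00987) passed as fallen. Fibroblast markers were present but fell in 9 of 10 tested, and summed to 789 to 849 CPM in ad-CRE and 1850 to 1949 CPM in ad-GFP, Lum being at 1 read in all. Tubular epithelial markers rose in 8 of 14 and fell in 4 of 14, and summed to 4370 to 4486 CPM in ad-CRE and 2410 to 2602 CPM in ad-GFP. Few genes carried these sums: Krt8 and Krt18 had 1983 and 957 CPM in ad-CRE and 745 and 459 CPM in ad-GFP, and Vim had 693 CPM in ad-CRE and 1614 CPM in ad-GFP. The 4 tubular markers that fell were Havcr1 (-2.02), Slc12a1 (-2.13), Cdh16 (-0.66) and Lrp2 (-0.55). Havcr1 had 66.0 CPM in ad-CRE and 268 CPM in ad-GFP. Aqp2 had no read, and Slc34a1 had 1 read in ad-CRE and 2 in ad-GFP. Endothelial markers fell in 7 of 7. Against these marker counts, 36.8% of all genes tested rose and 36.3% fell. Fibroblasts, epithelium and macrophages can all make Ccl2, Cxcl1 and Cxcl16, and which cells the reads came from was not tested.

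The genes whose log2 CPM ran most like that of Cxcl1 over the 8 libraries were C1qtnf3 (Pearson r = 0.998), Idi1 (0.998) and Slc2a3 (0.998), and those most like Ccl5 were Gata2 (0.998), Psmb10 (0.997) and Aida (0.994). With 2 groups set apart, 3006 genes reached an r above 0.9 with Cxcl1 and 2786 with Ccl5, so the measure mainly reads the difference between groups. The authors' deposited table gave the same directions for the 6 genes called here, with log2 fold changes of 1.67 for Cxcl1, 1.51 for Ppbp, 0.99 for Ccl2, 1.64 for Cx3cl1, 0.69 for Cxcl16 and -1.83 for Ccl5. In the authors' deposited table the smallest FDR among Cxcl2, Cxcl5, Ccl7 and Ccl20 was 0.303.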

How the data were processed

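RNA was measured in 8 libraries, extracted with a Qiagen RNeasy column kit and made into libraries with a SMARTer kit, per the labels' protocols. Builds named in the submitters' processing notes are GRCm38 and mm10. For the aligner, counting tool and annotation, nothing is stated in these sources. The deposited table holds, per the file headers, a count and an FPKM value per gene and library, and the authors' mean FPKM, log2 fold change, p-value and FDR.

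The deposited counts went through edgeR 4.0.16 under R 4.3.3 (filterByExpr, TMM scaling, quasi-likelihood test with the group as the only term, Benjamini-Hochberg over 13702 genes). The SE is the log2 fold change divided by the square root of F. Alternatives used DESeq2 1.42.0, limma 3.58.1, other scalings and filters, log2(FPKM + 1), log2(FPKM + 0.1), a replicate term, and leaving out each library.

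The 10 genes and the related lists were chosen with earlier results of these data known. All 10 are named. From other lists come the 4 smallest p-values and the 2 highest levels, from which those told here were taken, and chemokine genes near the 10. For the receptors, 1 gene is not reported here. The other receptors, Dpp4, Il1b, Tnf, Rela, Chuk, Ikbkb, Ikbkg, Nfkbie and some markers were named after their values were seen. Coordinates are from GENCODE M21 (GRCm38), which held 99.75% of gene IDs. Libraries within a group varied beyond counting noise, with a chi-square of 1.71 to 3.24 per degree of freedom. Same-numbered libraries did not deviate together (r of -0.13 to 0.12).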

Additional observations from a re-analysis of the deposited data

Results flagged for a closer look

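Among the 10 chemokine genes in each of the 2 groups, 20 sets of 4 libraries were checked for 1 library set apart from the other 3, of which chance gives about 1. One was found: Cxcl5 in ad-GFP replicate 3, at 0.865 CPM (15 reads), where the other 3 ad-GFP libraries had 3 to 5 reads. The ad-CRE libraries had 3 to 5 reads as well.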

How the results depend on the processing

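Over 17 alternative settings, 6 of the 10 chemokine genes were called in each, 5 that rose and 1 that fell. Counting only changes of 1 log2 unit or more gave 4 or 5, since Ccl2 lies at that limit. All genes called ranged from 8366 with the 5 CPM filter to 10765 with no filter beyond 1 read, and from 9768 to 9983 when 1 library was left out. A fit with the replicate number as a block called 9963 genes and the same number of the 10 chemokines. Scaling by total counts only moved log2 fold changes by a median of -0.03, and 47.2% of calls then rose. None of Cxcl2, Ccl7 and Ccl20 passed in any setting that tested them, and the sign was not stable for Ccl7 (-0.12 to 0.21) or Cxcl2 (-0.05 to 0.34). Counts moved by over 1.5 times in 19 of 442 recomputed list counts, each of them at 8 genes or fewer. Of the other genes told, Tnfaip3 turned to -0.0224 and -0.0228 and Elavl1 to -0.000669 on the 2 FPKM scales; the cause was not tested. Depth limits Cxcl2, Cxcl5, Ccl7 and Ccl20, where 16 to 164 reads per group leave wide intervals.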
